A study of Homo sapiens with 6 samples.

Results

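The genes described here encode the plasminogen activators urokinase (PLAU) and tissue activator (PLAT), the urokinase receptor (PLAUR), the annexin complex ANXA2 and S100A10, and the serpins SERPINE2, SERPINB2, SERPINB6 and SERPINB8. They were chosen by symbol, and all 9 were found among the 57819 genes of the deposited table. All 9 also passed the filter on low values (on average 10 or more normalized reads per library), as did 19048 genes in all. Every library came from IMR90 cells, human lung fibroblasts, carrying ER:Ras, a Ras oncogene that 4-hydroxytamoxifen (4OHT) switches on. Both groups received 200 nM 4OHT for 3 days, so neither shows these genes without Ras. The series calls the cells senescent, which was not tested here. Control cells were given a scrambled siRNA (siSCR) and knockdown cells an siRNA against sin-lncRNA, a long noncoding RNA, with 3 libraries in each group. The comparison asks how these genes respond when senescent cells lose the lncRNA. The labels name 1 cell line and do not say whether replicates were separate cultures, so p-values measure the spread between these libraries only. The meaning of the ending on the knockdown column names, si1.3, is not given in the sources used here.

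Plasminogen activators are serine proteases that cut the circulating zymogen plasminogen into plasmin, which degrades fibrin and matrix proteins and activates other proteases. Urokinase is held at the cell surface by its receptor, while annexin A2 with its partner p11 (S100A10) binds plasminogen and the tissue activator there. Serpins block the activators by offering a reactive loop that traps the protease in a covalent complex. Senescent fibroblasts are known for secreting activators, receptor and inhibitors as part of their secretory phenotype.

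In cells depleted of sin-lncRNA, 1 of the 9 genes rose and 5 fell, and 3 were not called. SERPINE2, a secreted inhibitor of thrombin, urokinase, tissue activator and plasmin, rose 3.02-fold. PLAU, PLAT, ANXA2, SERPINB2 and SERPINB6 fell, to between 46.2% and 86.8% of control. PLAUR, S100A10 and SERPINB8 did not pass the test. Calls are those of limma with a Benjamini-Hochberg adjusted p under 0.05 over all 19048 genes, of which 41.0% were called, 17.5% higher and 23.5% lower in knockdown. The libraries of the groups did not overlap for 6 of the 9 genes, the same 6 that were called, against 51.1% of all genes tested. For 1 of the 9 every knockdown library was above every control (22.6% of all genes), and for 5 every one was below (28.5%). The median log2 fold change was -0.20 over the 9 genes and -0.04 over all genes tested.

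The labels and depth were checked first. The sin-lncRNA itself was at 3.70, 4.73 and 4.09 RPM (reads scaled to a common library size of 1000000) in controls and 0.493, 0.640 and 0.534 in knockdowns, which checks the labels. Reads in genes numbered 30271192 to 50913672 in controls and 22117324 to 27882280 in knockdowns, so depth and group cannot be told apart by library. After thinning all libraries to the depth of the shallowest, 6 of the 9 genes were called, as before. The summed level of 12 fibroblast markers was 49236 to 51704 RPM in controls and 50269 to 52000 in knockdowns (5 called higher, 5 lower). The sum hides opposite changes. FN1, the largest part, rose from a mean of 25152 to 29811 RPM, while COL1A1 fell from 6617 to 3599. The 5 endothelial markers found summed to 7.06 to 7.90 RPM in controls and 7.94 to 8.84 in knockdowns, without overlap. Of these, VWF was called higher (limma adjusted p = 0.034) and TEK was not called. The 7 immune markers summed to between 0.448 and 1.67 RPM and the 7 epithelial markers to between 31.4 and 35.4. Among the epithelial markers KRT18 (22.0 RPM in knockdowns, called higher) made up the most and 3 others were called lower. The part of these markers in the results was not tested. No marker of these lists was at 0 in all libraries. In bulk RNA, fewer cells of a type and less RNA per cell cannot be told apart.

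The sequences just before the transcript start are shown for the gene that rose most, the gene that fell most and the most abundant gene. They are RefSeq sequences in GRCh38.p14, read 5′ to 3′ on the gene's strand and ended where an annotated GENCODE 29 exon begins. Capitals mark matches to the AP-1 site TGANTCA, the CCAAT box CCAAT, the TATA box TATAAA, the GC box GGGCGG and the E-box CACGTG, each searched on both strands.
SERPINE2, chr2:224031479-224031728, minus strand: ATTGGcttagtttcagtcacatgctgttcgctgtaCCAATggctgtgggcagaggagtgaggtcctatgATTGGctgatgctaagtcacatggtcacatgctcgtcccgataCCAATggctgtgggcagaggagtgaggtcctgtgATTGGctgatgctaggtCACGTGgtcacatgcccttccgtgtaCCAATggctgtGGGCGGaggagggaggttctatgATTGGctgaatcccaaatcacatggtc
SERPINB2, chr18:63887455-63887699, plus strand: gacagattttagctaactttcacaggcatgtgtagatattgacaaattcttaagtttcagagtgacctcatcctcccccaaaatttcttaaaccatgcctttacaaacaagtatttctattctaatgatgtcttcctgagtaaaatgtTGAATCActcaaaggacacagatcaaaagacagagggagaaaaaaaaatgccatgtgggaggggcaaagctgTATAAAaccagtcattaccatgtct
PLAU, chr10:73910882-73911103, plus strand: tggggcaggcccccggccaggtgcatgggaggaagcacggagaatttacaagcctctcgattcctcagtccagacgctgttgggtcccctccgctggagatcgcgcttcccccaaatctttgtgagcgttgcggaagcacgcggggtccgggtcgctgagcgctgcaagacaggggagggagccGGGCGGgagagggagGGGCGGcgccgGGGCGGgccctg
The SERPINE2 stretch belongs to 1 of its 2 listed starts and holds 7 CCAAT boxes, 34 to 43 bases apart from one to the next. At least 7 CCAAT boxes were found in 7 of 35116 windows of 250 bases (0.0199%), and at least 1 in 32.0%. The threshold of 7 was taken from this SERPINE2 window, which is itself among those 7. The letters around the boxes recur along the stretch, so the 7 boxes are not separate finds. The SERPINE2 stretch shown also holds 1 E-box, as 6.34% of windows do. The window before its other start held 2 GC boxes but 0 CCAAT boxes and 0 E-boxes. SERPINB2 holds 1 AP-1 match, 102 to 96 bases before its start, and 1 TATA box, 30 to 25 bases before it. PLAU holds 3 GC boxes at this start, and the window before its other start held 1 CCAAT box and 0 GC boxes. Which start of SERPINE2 or PLAU these cells use was not tested.

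**Figure D1:**
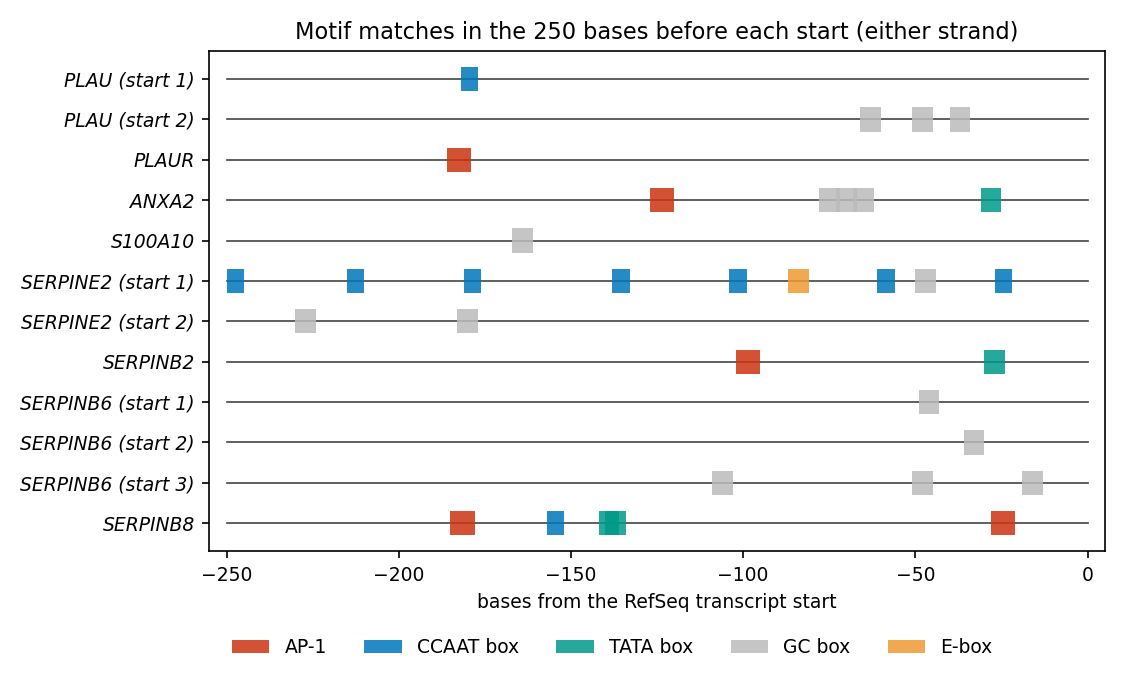
Motif matches in the 250 bases before RefSeq transcript starts of the plasminogen system genes. The x axis is the distance in bases from the start, each line is 1 start, numbered by rising coordinate, and coloured blocks are matches on either strand. Windows are drawn whole, including bases that lie in annotated exons. One of 13 windows held no match and is not drawn, and the row of 7 CCAAT boxes before 1 of the 2 SERPINE2 starts stands out.

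Windows of 8 of the 9 genes were used, 13 in all, and the sequence before PLAT was not analysed here. AP-1 matches lay in 4 of the 13 windows, each of a different gene, against 6.57% of all windows. These were ANXA2 and SERPINB2, which fell, and PLAUR and SERPINB8, which were not called. TATA boxes lay in 3 of the 13, those of ANXA2, SERPINB2 and SERPINB8 (10.7% of all windows), and GC boxes in 8 of the 13, of 5 genes (42.6% of all windows). CCAAT boxes lay in 3 of the 13, those of PLAU, SERPINB8 and SERPINE2 (32% of all windows). An E-box lay in 1 of the 13, of SERPINE2 (6.34% of all windows). Among the SERPINB6 windows, 2 overlap and hold the same GC box, so the 13 windows are not all separate. ANXA2's 3 GC boxes overlap each other, as do the 2 TATA matches of SERPINB8. Unlike the printed sequences, these counts take whole windows, including annotated exon. All 250 bases were exon for PLAUR, S100A10 and every SERPINB6 window with a GC box. Exon covered 156 bases for SERPINB8 and 164 in the SERPINE2 window without CCAAT boxes. The PLAUR AP-1 match, 1 of the 2 SERPINB8 AP-1 matches and the TATA matches of ANXA2 and SERPINB8 lay in exon. So did all GC boxes of S100A10 and SERPINB6, while the SERPINB8 CCAAT box crossed an exon edge. A match describes the letters of these windows and no binding was measured.

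PLAU (ENSG00000122861.11; chromosome 10, 75668935 to 75677255, plus strand, hg19 as the submitters' processing notes name it) encodes urokinase. Its level was 1897, 1937 and 1874 RPM in control replicates 1, 2 and 3 and 1634, 1614 and 1525 in knockdowns. Every knockdown library lay below every control. PLAU fell by 0.26 on the log2 scale (SE 0.04; limma, Benjamini-Hochberg adjusted p = 0.00065), to 83.6% of control, from 1902 ± 31.8 to 1591 ± 58.3 RPM (SD, n = 3). Quantile normalization left a smaller fall, with a log2 fold change of -0.17 (limma adjusted p = 0.01; range over the alternatives 0.00016 to 0.015). C10orf55 overlaps PLAU on the opposite strand at a mean of 2.43 RPM.

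PLAT (ENSG00000104368.13; chromosome 8, 42032236 to 42065242, minus strand) encodes the tissue activator, best known for dissolving clots. It stood at 1081, 865 and 896 RPM in controls and at 661, 672 and 652 in knockdowns. The groups did not overlap, and control replicate 1 was the highest library. The fall of PLAT from 947 ± 117 to 662 ± 9.77 RPM (SD, n = 3) was -0.51 on the log2 scale (SE 0.07; limma, Benjamini-Hochberg adjusted p = 0.00022). Without control replicate 1 its log2 fold change was -0.41.

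PLAUR (ENSG00000011422.7; chromosome 19, 44150247 to 44174699, minus strand) encodes the glycolipid-anchored receptor that binds urokinase. It gave 126, 142 and 136 RPM in controls and 137, 146 and 140.2 in knockdowns, and the groups overlapped. The log2 fold change was 0.07 (limma, 95% interval -0.05 to 0.18; adjusted p = 0.32). The PLAU to PLAUR ratio within a library was 15.1, 13.7 and 13.8 in controls against 11.95, 11.1 and 10.9 in knockdowns.

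**Figure D2:**
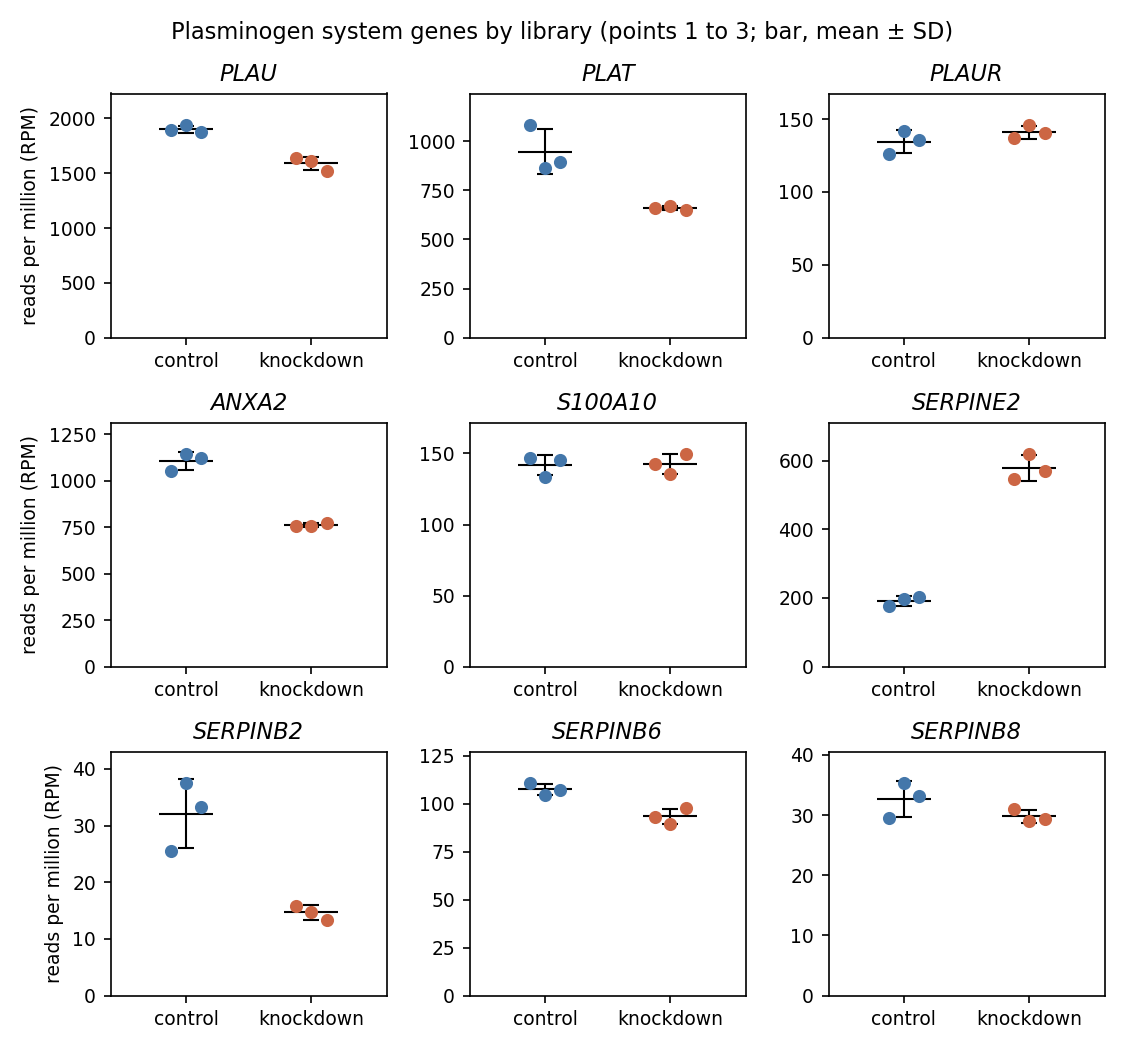
Level of each of the 9 genes in RPM (y axis, from 0) in control and knockdown libraries. Points are replicates 1, 2 and 3 from left to right and bars are the mean ± SD. SERPINE2 alone has its knockdown points above its control points without overlap, at 546 to 618 against 175 to 202 RPM.

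ANXA2 (ENSG00000182718.12; chromosome 15, 60639333 to 60695082, minus strand) encodes annexin A2, a calcium-dependent membrane-binding protein that assembles plasminogen with the tissue activator on the cell surface. Controls were at 1050.5, 1141 and 1123.5 RPM and knockdowns at 754, 758 and 774, without overlap. ANXA2 fell by 0.53 on the log2 scale (SE 0.04; adjusted p = 4.8e-06 in limma), to 69.0% of control. Near-identical pseudogenes make its level uncertain. The copy ANXA2P2 alone was listed at 909, 1015 and 1026 RPM in controls and 663, 652 and 669 in knockdowns. ANXA2 held 47.2% to 48.5% of the reads of itself and its 3 pseudogenes in all 6 libraries. With the reads of all 4 summed, an alternative chosen after seeing the data, the log2 fold change was -0.54.

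S100A10 (ENSG00000197747.4; chromosome 1, 151955391 to 151966866, minus strand) encodes p11, which pairs with annexin A2 into a heterotetramer. Its libraries gave 147, 133 and 145 RPM in controls and 143, 135 and 149 in knockdowns, and the ranges of the groups overlapped. The log2 fold change was 0.01 (limma, 95% interval -0.11 to 0.12; adjusted p = 0.93). The within-library ratio of ANXA2 to S100A10 was 7.16, 8.55 and 7.74 in controls and 5.28, 5.61 and 5.18 in knockdowns.

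SERPINE2 (ENSG00000135919.8; chromosome 2, 224839829 to 224904036, minus strand) encodes protease nexin-1, a heparin-binding serpin that fibroblasts secrete. It stood at 175, 198 and 202 RPM in controls and at 546, 618 and 571 in knockdowns. All knockdown libraries lay far above all controls, with a gap wider than the spread of either group. The means were 192 ± 14.6 and 578 ± 36.6 RPM (SD, n = 3), and the rise of SERPINE2 was 1.59 on the log2 scale (SE 0.06; adjusted p = 5.5e-08 in limma). This was the 77th largest rise among the 19048 genes. In the 18 alternative fits its log2 fold change stayed between 1.53 and 1.63.

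SERPINB2 (ENSG00000197632.4; chromosome 18, 61538926 to 61571124, plus strand) encodes PAI-2, an inhibitor of urokinase that remains mostly inside the cell. It had 25.5, 37.5 and 33.3 RPM in controls and 15.9, 14.8 and 13.4 in knockdowns. Its reads numbered 869 to 1677 in a control library and 346 to 376 in a knockdown library. The groups did not overlap, and the controls were more spread than the knockdowns. From 32.1 ± 6.06 to 14.7 ± 1.24 RPM (SD, n = 3), SERPINB2 fell by 1.11 on the log2 scale (SE 0.12; adjusted p = 4.2e-05 in limma). This was the 148th largest fall of all genes tested.

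SERPINB6 (ENSG00000124570.13; chromosome 6, 2948393 to 2972090, minus strand) encodes an intracellular serpin that inhibits trypsin-like proteases and cathepsin G. Control libraries had 111, 105 and 107 RPM and knockdown libraries 93.1, 89.5 and 97.5, again without overlap. It fell by 0.20 on the log2 scale (SE 0.05; limma, Benjamini-Hochberg adjusted p = 0.0057), the smallest of the 5 falls. SERPINB8 (ENSG00000166401.9; chromosome 18, 61637159 to 61672278, plus strand), whose product inhibits the convertase furin, had 29.4, 35.3 and 33.2 RPM in controls and 30.9, 29.03 and 29.4 in knockdowns. Its groups overlapped because control replicate 1 was low, and it did not pass the test (log2 fold change -0.13, limma 95% interval -0.28 to 0.03; adjusted p = 0.17). Without control replicate 1, SERPINB8 passed, with a log2 fold change of -0.20 (limma adjusted p = 0.025; range over the alternatives 0.025 to 0.48). The SERPINB2 and SERPINB8 genes lie on the same arm of chromosome 18, in the cluster of clade B serpins.

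Per kilobase of annotated exon (GENCODE 29, union of exons), the order in controls ran from PLAU (645 RPM per kilobase) through PLAT (143), ANXA2 (125), S100A10 (91.9), PLAUR (30.2), SERPINE2 (21.6), SERPINB2 (11.7) and SERPINB6 (8.14) to SERPINB8 (5.56). No neighbours in this order overlapped over the 3 controls, though PLAT (130.7 to 163) and ANXA2 (119 to 129) nearly met. In knockdowns SERPINE2 reached 65.1 ± 4.11 RPM per kilobase, above PLAUR at 31.6 ± 1.02 (SD, n = 3). There ANXA2 (85.5 to 87.8) overlapped S100A10 (87.6 to 96.8), and SERPINB2 (4.87 to 5.77) overlapped SERPINB8 (4.95 to 5.27). With the length of the longest coding transcript instead, ANXA2 (659) stood above PLAT (350.1) and SERPINB6 (19.1) above SERPINB2 (14.9) in controls. S100A10 was at 118 in controls by that length, far below ANXA2, and knockdown levels by that length were not computed. The near-identical copies of ANXA2 also leave its place in this order uncertain.

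Ratios within a library compare an activator with its receptor or inhibitor free of library scaling. The PLAU to SERPINE2 ratio was 10.8, 9.77 and 9.26 in controls and 2.99, 2.61 and 2.67 in knockdowns. For PLAT to SERPINE2 it was 6.16, 4.36 and 4.43 in controls and 1.21, 1.09 and 1.14 in knockdowns. Both activators thus had several times the inhibitor's reads in controls and PLAT had nearly equal reads in knockdowns, on a scale not corrected for gene length. The log2 difference was -1.85 for PLAU to SERPINE2 and -2.10 for PLAT to SERPINE2. It was -0.33 for PLAU to PLAUR, -0.54 for ANXA2 to S100A10 and 0.25 for PLAU to PLAT, the last falling to 0.15 without control replicate 1. In all 5 ratios the groups did not overlap. Each gave p = 0.1 in a two-sided exact permutation test (0.1 after adjustment over the 5), the smallest that 3 libraries against 3 allow. The ratios share genes and are not independent of one another.

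**Figure D3:**
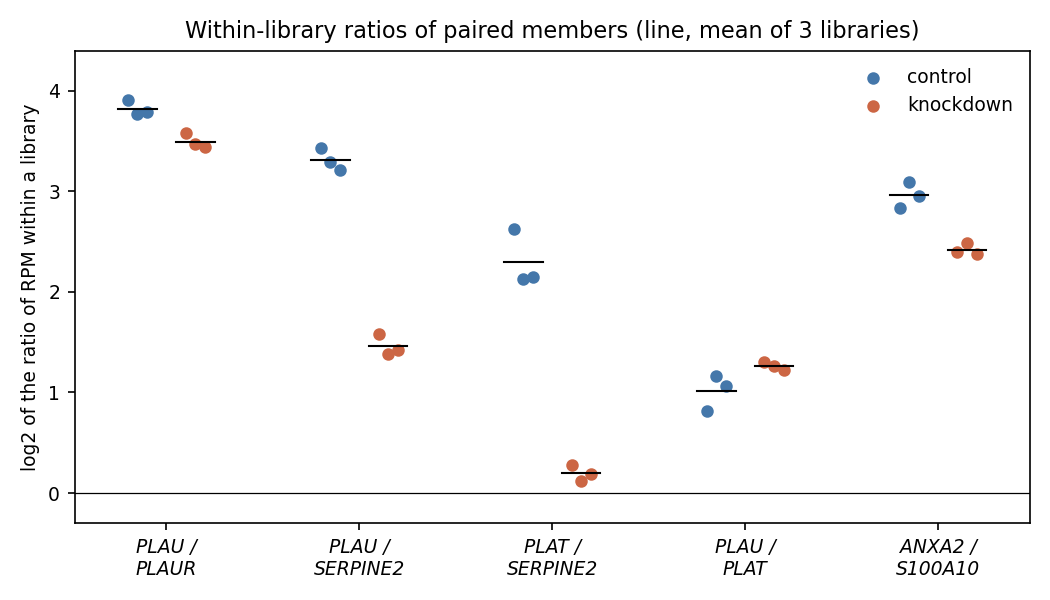
Log2 of the ratio of 2 genes within each library (y axis) for 5 pairs (x axis), with controls in blue, knockdowns in orange and a line at each group's mean. The PLAT to SERPINE2 ratio moved most, from a mean of 2.30 to 0.20.

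Of 25 other genes of plasminogen activation and the clotting reactions tied to it, 18 passed the filter and 15 were called, 9 higher and 6 lower, against 41.0% of all genes called. Their median log2 fold change was 0.15. Inhibitors were among those that fell. SERPINI1 (neuroserpin), an inhibitor of the tissue activator, had means of 4.10 ± 0.27 and 2.02 ± 0.19 RPM (SD, n = 3) and fell by 1.01 on the log2 scale (adjusted p = 0.00012 in limma). TFPI2, a Kunitz inhibitor of plasmin, fell by 0.90. The surface plasminogen receptors ENO1, better known as a glycolytic enzyme, and PLGRKT fell by 0.35 and 0.32. THBD, the thrombin receptor thrombomodulin, fell by 0.47.

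Those that rose included the protease-activated receptors, which thrombin and related proteases switch on by cleavage. F2RL1 rose by 1.06 on the log2 scale (adjusted p = 5.6e-08 in limma), with means of 96.2 ± 1.98 and 201 ± 5.37 RPM (SD, n = 3). F2RL2 rose by 0.97 and F2R by 0.71. LRP1, the endocytic receptor that clears activator-inhibitor complexes, rose by 0.41 and its chaperone LRPAP1 by 0.39. MRC2, a collagen receptor that associates with the urokinase receptor, rose by 0.45, and the matrix protein THBS1 by 0.39. TFPI, which blocks the tissue factor pathway, rose by 0.61. F3, tissue factor, rose by 0.16 (limma adjusted p = 0.022), but was not called without control replicate 1 (0.14; adjusted p in limma, 0.054), knockdown replicate 2 (0.12; 0.09) or knockdown replicate 3 (0.16; 0.059), nor with the replicate number as a block (0.16; 0.052). LRP1 overlaps STAT6, and F2RL2 lies within IQGAP2, on the opposite strand, and reads of such pairs may be split between them. VLDLR, PROCR and F12 were tested and not called. The other 7, including plasminogen itself (PLG, 0.068 ± 0.010 RPM in controls and 0.101 ± 0.107 in knockdowns, against a floor of 0.0596 to 0.134 for 3 reads), were too low to test.

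**Figure D4:**
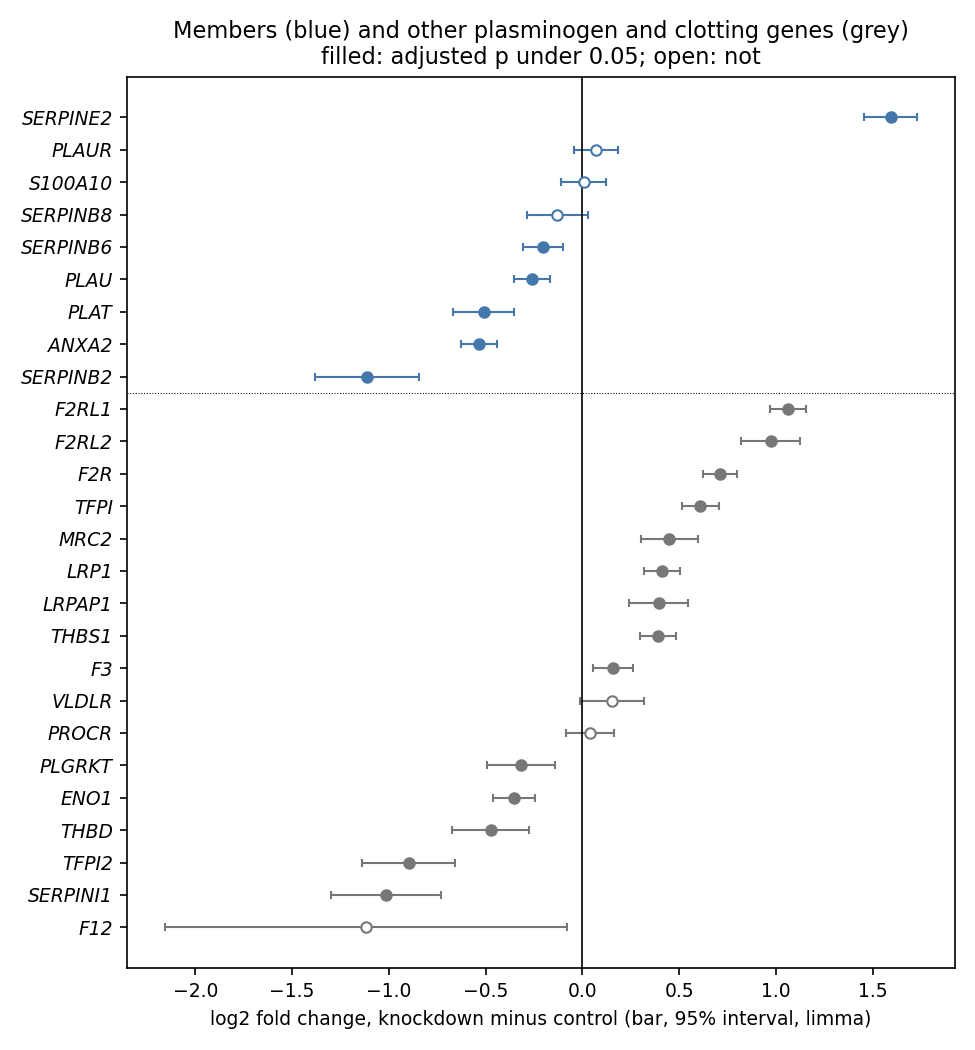
Log2 fold change, knockdown minus control (x axis), for the 9 genes (blue) and other tested genes of the list (grey), with 95% intervals from limma. Filled points passed the test and open points did not, and SERPINE2 at 1.59 has the highest value shown.

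Among 25 further serpins, 9 were tested, 3 were called and all 3 were higher. That is 33.3% called, below the 41.0% of all genes tested, of which 17.5% were higher. SERPINB9, an inhibitor of granzyme B, had a log2 fold change of 0.89, from 2.95 ± 0.263 to 5.47 ± 0.362 RPM (SD, n = 3), and SERPINF1, an antiangiogenic serpin without inhibitory activity, one of 0.72. SERPINH1, the collagen chaperone, was called at 0.18, with overlapping groups. Its call was lost without control replicate 2 (0.14; adjusted p in limma, 0.08), control replicate 3 (0.18; 0.087), knockdown replicate 2 (0.13; 0.12) or knockdown replicate 3 (0.18; 0.091), and with the replicate block (0.18; 0.09). Of the 12 other annexins, 8 were tested and 7 called, 5 lower and 2 higher (87.5% called, against 41.0% of all genes tested). ANXA3 fell by 0.73, ANXA1 by 0.37 and ANXA6 by 0.36, while ANXA5 (0.17) and ANXA4 (0.16) were higher. ANXA4 lost its call without control replicate 1 (0.15; adjusted p in limma, 0.067), control replicate 3 (0.16; 0.089), knockdown replicate 2 (0.17; 0.055) or knockdown replicate 3 (0.13; 0.11), and with the replicate block (0.16; 0.07). Without the intensity trend, 4 annexins were called.

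The S100 family, to which p11 belongs, had 9 tested genes beside S100A10, with 3 called, all lower. The share called, 33.3%, was below the 41.0% of all genes, of which 23.5% were lower. S100A16 fell by 0.86, from 489 ± 6.69 to 269.9 ± 2.92 RPM (SD, n = 3), and S100A6 by 0.59. S100A11 fell by 0.15, a call lost without control replicate 3 (-0.13; adjusted p in limma, 0.071), knockdown replicate 3 (-0.14; 0.052) and under quantile normalization (-0.10; 0.06).

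The genes whose log2 values followed PLAU most closely over the 6 libraries, among 15114 others with a mean of at least 50 normalized reads, were RP13-258O15.1 (Pearson r 0.9983), HIBADH (0.9982) and SKAP2 (0.9967). For SERPINE2 they were LINC00519 (0.9998), SLC39A6 (0.9997) and PON2 (0.9996). These values are descriptions, since the 6 libraries share the difference between groups. A correlation above 0.95 was reached by 952 genes (6.30%) with PLAU and by 1298 (8.59%) with SERPINE2.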

How the data were processed

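PolyA RNA of 6 libraries was read as single 50 bp reads. Per the submitters' processing notes Bowtie2, featureCounts and hg19 were used; versions, annotation release and strand setting are not given in the sources used here, so genes that overlap others or have near-identical copies are uncertain. The deposited table, named as normalized counts, holds log2 CPM values made by the authors. Removing an offset of 0.5 reads gave whole numbers (within 0.01 reads) for 100% of values, so reads were recovered; RPM is recovered reads scaled by the authors' effective library size to 1000000. The test was run on these deposited log2 values with limma 3.58.1 (R 4.3.3), lmFit and eBayes with an intensity trend, group as the sole term, a mean of at least 10 normalized reads, two-sided, Benjamini-Hochberg adjustment over 19048 genes, called at 0.05. The fit was tested on simulated reads. A count of 0 allows 3 reads, or 0.0596 to 0.134 RPM, for counting error only. Replicates differed by more than sampling noise (chi-square per degree of freedom 2.83 to 11.1). Members and lists were chosen with earlier results of these data known. Named were the 9 members, every called gene of the plasminogen list (1 is counted but not reported here), up to 3 rises and 3 falls of each other family, and the 3 genes most like PLAU and SERPINE2. Alternatives were other offsets, filters, scalings, variance models, thinning, a replicate block and leaving out each library. PECAM1, an endothelial marker, was not analysed here.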

Additional observations from a re-analysis of the deposited data

How the results depend on the processing

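Of 18 alternative fits, the number of the 9 genes called ran from 6 to 7, and the 6 called genes kept direction and call in each; the extra call was SERPINB8 without control replicate 1. Genes changed in all ran from 5803 to 7885. S100A10, never called, reversed to -0.036 without control replicate 2 and to -0.028 without knockdown replicate 3 (leaving out single libraries gave -0.036 to 0.044); the cause was not tested. The number of annexins called dropped from 7 to 4 without the intensity trend, the cause of which was not tested; in that fit ANXA4, ANXA5, F3, SERPINH1 and S100A11 lost their calls. Of 36 genes (sin-lncRNA, the 9 members and the called genes taken from the lists, without the 6 most like PLAU or SERPINE2, whose values in the other fits were not collected), 29 had the same direction and call in all fits, 5 lost a call in some, 1 gained one and 1 reversed. Correlations of deviations were -0.149, -0.183 and 0.0655 between libraries of equal replicate number, and -0.0758 to 0.204 between unequal numbers. With 3 libraries per group, these values cannot show whether libraries were paired by replicate number. In a fit blocked on that number, 6454 genes changed in all, and 6 of the 9 members, 14 plasminogen system genes, 2 serpins, 6 annexins and 3 S100 genes were called. SERPINB2 had at least 346 reads per library, while PLG and 6 other listed genes could not be tested. Levels per kilobase moved with the choice of gene length in all 9 genes, by construction.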
